A study of Homo sapiens with 24 samples.

Results

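The control arms of the series were set side by side under the same hormone: LNCaP cells transfected with an empty vector and LNCaP cells transfected with a control siRNA, both then treated with 5 nM R1881. The members are the 6 libraries of these groups among the 24 of the series, chosen by their labels alone, 3 of empty vector cells (S2, S16 and S30) and 3 of control siRNA cells (S8, S22 and S36). Values of a gene in single libraries are given in that order throughout. LNCaP is a human prostate cancer line that grows in response to androgen, and R1881 is a synthetic androgen. The question is which differences between the control arms remain once both have androgen.

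The empty vector is the control of study 1, in which other cells received a construct for WDR77-peptide 3 (P3), and the control siRNA is the control of study 2, in which other cells received an siRNA against WDR77. All cells went through transfection, then a change to androgen-deprived medium, then R1881 or ethanol for 48 h. The matching vehicle libraries, 3 of empty vector cells (S1, S15 and S29) and 3 of control siRNA cells (S7, S21 and S35), had ethanol and no androgen, and served to show whether a difference was also there without hormone. Transfected nucleic acid, transfection and study differ together, so their parts in any difference cannot be told apart. The cells are 1 line, transfection was transient, and the labels call the libraries of a group biological triplicates without saying which cultures or days they came from.

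In prostate luminal cells, androgen switches on genes of secreted proteases such as KLK3 (prostate-specific antigen), the serine protease gene TMPRSS2, the chaperone FKBP5, and enzymes of lipid synthesis. Interferon-stimulated genes are the common output of the sensors of foreign nucleic acid. The genes of glycolysis are under the control of the hypoxia-inducible factors and of MYC. In the unfolded protein and amino acid stress responses, the factors XBP1 and ATF4 switch on chaperones and enzymes of amino acid supply. These are general facts and not results of these libraries.

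The 6 libraries held 16876495 to 20893970 counts each, and the 12 used in the fit up to 24260446. Mitochondrially encoded genes took 5.66 ± 0.304% of counts in empty vector cells and 5.64 ± 0.194% in control siRNA cells (SD, n = 3 each; exact permutation test, two-sided, p = 1, where the smallest possible p was 0.1). Luminal prostate markers summed to 18203 to 19758 CPM in empty vector cells and 19538 to 21365 CPM in control siRNA cells (CPM, counts per 1000000 counts of the scaled library). Of the 5 immune markers 2 were at 0 in all 6 libraries, and the summed level of the list reached 0.441 CPM at most in empty vector cells and 0.0543 CPM in control siRNA cells. A vehicle library, control siRNA S35, stood apart from the others of its group, with 8.40% mitochondrial counts. Because the 4 groups share 1 estimate of the spread, this library also enters the error of the R1881 comparison, and where leaving it out changes the call of a named gene or moves a count by over 1.5 times, both values are given. In bulk libraries, fewer cells of a type and less RNA per cell cannot be told apart.

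Of 17538 genes tested, 3497 (19.9%) differed between empty vector and control siRNA cells with R1881 at an adjusted p under 0.05 (edgeR quasi-likelihood test, Benjamini-Hochberg over all genes), 1534 higher (8.75%) and 1963 lower (11.2%) in empty vector cells. Without S35 the balance turned, to 2175 higher and 2089 lower. At least 2-fold differences were fewer, 312 higher (1.78%) and 128 lower (0.73%), and without S8 of the control siRNA cells the lower ones were 77. All 3 libraries of 1 group lay above all 3 of the other for more genes than were called, with the empty vector libraries higher for 16.8% of genes and lower for 19.6%. With vehicle, in libraries that the first comparison does not share, 6390 genes (36.4%) differed, 3492 higher (19.9%) and 2898 lower (16.5%), and by at least 2-fold 434 higher (2.47%) and 565 lower (3.22%), with 254 higher and 469 lower without S35. The arm difference itself differed between R1881 and vehicle for 3014 genes (17.2%), 1116 upward (6.36%) and 1898 downward (10.8%), and by at least 2-fold 301 upward (1.72%) and 115 downward (0.656%). Scaling by library totals alone turned these splits to 2601 higher and 3819 lower with vehicle, and to 1781 upward and 972 downward for the change between hormone states, where the median change over all genes was 0.08 with library totals and -0.03 with TMM factors on the log2 scale.

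Of the genes called with R1881, 739 were higher in empty vector cells with and without hormone and 828 were lower in both, together 44.8% of the R1881 calls and 24.5% of the vehicle calls. Another 291 were called in opposite directions, 102 of them higher with R1881, and 1639 were not called with vehicle. For 301 of the R1881 calls (8.61%), all 12 libraries of study 1 lay on one side of all 12 of study 2, P3 and WDR77 siRNA cells included. Over all genes tested, 1.21% had study 1 wholly above and 0.918% wholly below. The 24 libraries include the 12 that gave the calls, so the share among called genes is not independent of the calls.

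The best-known androgen targets stood close together in the hormone-treated arms. KLK3 had 6192, 6655 and 6937 CPM in empty vector cells, against 7604, 7939 and 7763 CPM in control siRNA cells, and KLK2, a related protease, had 706, 754 and 803 CPM against 595, 606 and 587 CPM. The groups did not overlap for either gene, in opposite directions. The log2 difference was -0.24 ± 0.39 (SE) for KLK3 (adjusted p = 0.741) and 0.34 ± 0.24 for KLK2 (adjusted p = 0.378, edgeR). Neither was called in the fit of 12 libraries, but without vehicle library S35 of the control siRNA cells both were, at -0.22 for KLK3 (adjusted p = 3.26e-04) and 0.36 for KLK2 (adjusted p = 1.36e-06). Both were also called with the 6 R1881 libraries alone, KLK3 at -0.22 (adjusted p = 0.00183) and KLK2 at 0.36 (adjusted p = 7.67e-06, edgeR). TMPRSS2 had 2775, 2750.1 and 2924 CPM against 2810.1, 3267 and 3375 CPM in control siRNA cells, with library S8 of the control siRNA cells inside the range of the empty vector cells. Its log2 difference of -0.16 was not called either (adjusted p = 0.22), and was called without S35 at -0.14 (adjusted p = 0.0315). TMPRSS2 was also called without a filter on low counts (-0.16, adjusted p = 0.0425, edgeR). FKBP5 averaged 2384 ± 46.9 CPM in empty vector cells and 2386 ± 216 CPM in control siRNA cells (SD, n = 3 each), overlapping groups with a log2 difference of -0.00 (adjusted p = 0.996).

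**Figure D1:**
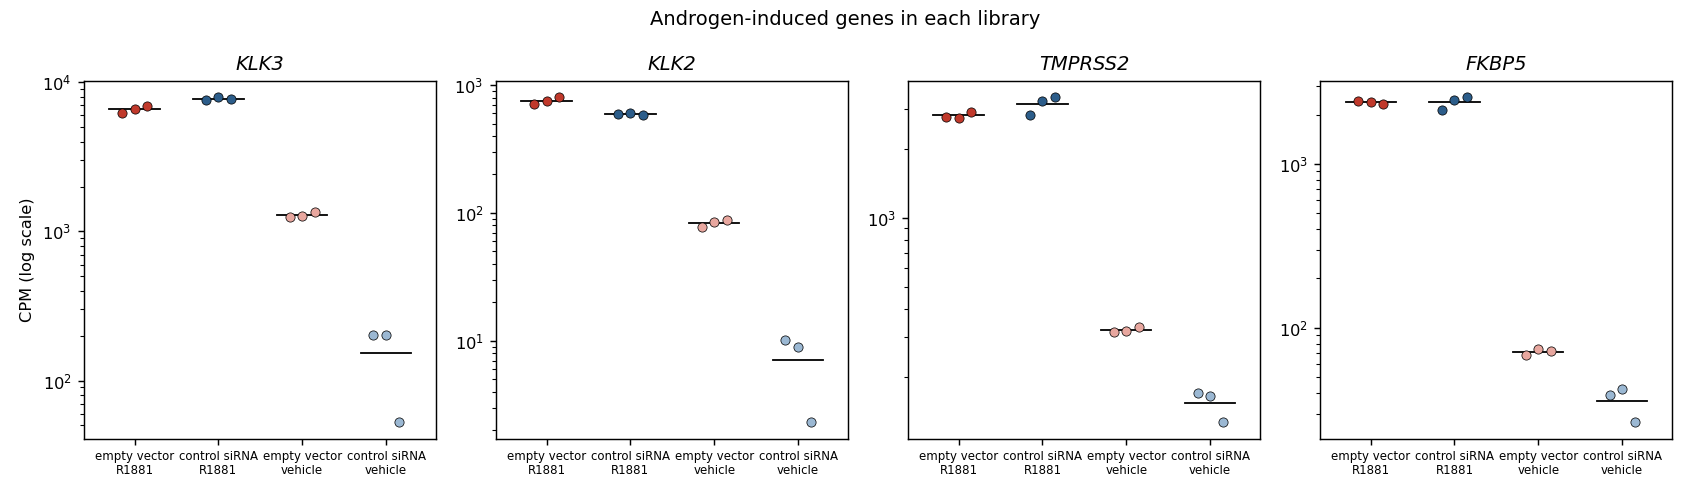
Levels (CPM, log scale) of 4 androgen-induced genes in each of the 12 control libraries, with a bar at each group's mean. With R1881 the empty vector and control siRNA libraries sit within a narrow range, while with vehicle the empty vector libraries lie above the control siRNA libraries for all 4 genes.

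Without hormone the same genes differed more. KLK3 had 1249, 1266 and 1355 CPM in empty vector cells and 203, 204 and 52.4 CPM in control siRNA cells with vehicle, a log2 difference of 3.08 (adjusted p = 6.34e-04). The change of the arm difference between hormone states was -3.31 for KLK3 (adjusted p = 0.00535), -3.20 for KLK2 (adjusted p = 9.95e-04), -1.23 for TMPRSS2 (adjusted p = 6.23e-06) and -0.999 for FKBP5 (adjusted p = 0.00539). Each of these is a log2 value from the edgeR interaction term, and each is negative, so relative to the control siRNA cells the empty vector cells stood higher without hormone than with it.

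Of 43 androgen-induced genes tested, 6 were higher and 9 lower in empty vector cells with R1881, against 8.75% and 11.2% of all genes, and their median log2 difference was -0.05 (all genes: -0.01). With vehicle 25 of the 43 were higher and 5 lower, against 19.9% and 16.5% of all genes. The arm difference was lower with R1881 than with vehicle for 17 of them and higher for 2 (MAF and SGK1), against 10.8% and 6.36% of all genes. Without S35, 10 were higher and 16 lower with R1881.

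The 6 higher genes included MAF, a transcription factor, with 332, 325 and 339.7 CPM in empty vector cells against 152, 178 and 188 CPM in control siRNA cells. Groups did not overlap, and the log2 difference was 0.94 ± 0.07 (adjusted p = 4.26e-10), against -0.49 with vehicle (adjusted p = 5.23e-04), opposite in direction. GNMT, which uses up S-adenosylmethionine, was also higher, at 219 ± 18.8 CPM against 127 ± 13.5 CPM (log2 difference 0.78, adjusted p = 8.44e-09). NDRG1, induced by androgen and by hypoxia, was higher at 0.65 (adjusted p = 9.46e-08). Among the 9 lower genes, ADAMTS1, a secreted metalloprotease, had 1805, 1752 and 1752 CPM in empty vector cells against 2589.9, 2508 and 2619 CPM in control siRNA cells. Its difference was nearly the same in both hormone states, -0.54 with R1881 (adjusted p = 4.93e-08) and -0.55 with vehicle (adjusted p = 1.80e-08), and the change between them was 0.01 ± 0.08 (SE).

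EAF2, an elongation factor partner, KLK4, a further protease of the family, and PMEPA1, an inhibitor of TGF-beta signalling, went the other way in the other hormone state. EAF2 had 38.1, 41.02 and 37.3 CPM in empty vector cells against 73.9, 64.2 and 66.8 CPM in control siRNA cells with R1881, a log2 difference of -0.81 (adjusted p = 9.46e-08), and 0.44 with vehicle (adjusted p = 0.0248). KLK4 stood at -0.52 with R1881 (adjusted p = 0.00207) and 1.003 with vehicle (adjusted p = 6.18e-06). PMEPA1 stood at -0.39 with R1881 (adjusted p = 1.61e-05) and 0.61 with vehicle (adjusted p = 6.65e-08).

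Of 18 genes tested in a list of androgen-repressed genes, 3 were higher and 3 lower with R1881, against 8.75% and 11.2% of all genes. The higher ones were UGT2B11, UGT2B28 and UGT2B15, enzymes of a family that attaches glucuronic acid to steroids. Only UGT2B15 of these had a lower mean with R1881 than with vehicle, 2.60 against 60.6 CPM in empty vector and 0.761 against 58.7 CPM in control siRNA cells. UGT2B11 was higher with R1881, at 58.5 against 6.59 and 11.4 against 1.45 CPM. So was UGT2B28, at 40.7 against 1.73 and 10.02 against 0.335 CPM. These changes with hormone were not tested. UGT2B11 had 60.6, 60.6 and 54.4 CPM in empty vector cells against 11.2, 10.6 and 12.4 CPM in control siRNA cells, with no overlap (log2 difference 2.36 ± 0.13, adjusted p = 8.21e-13). UGT2B28 differed by 2.02 (adjusted p = 1.70e-11) and UGT2B15 by 1.78 (adjusted p = 0.0367). These genes are near-identical, so how the counting split their reads is uncertain. LRRN1 was lower by -0.98 on the log2 scale (adjusted p = 0.00324), and so was IGFBP3, a binding protein of insulin-like growth factors, at 15.04, 16.4 and 17.1 CPM against 89.6, 39.3 and 33.4 CPM, where library S8 of the control siRNA cells was the highest (log2 difference -1.73, adjusted p = 0.0366). The third was FOLH1. The call for UGT2B15 was lost without S1, S15 or S29, the empty vector libraries with vehicle, or S8, S22 or S36 of the control siRNA cells (adjusted p up to 0.125), and that for IGFBP3 without S8 (-1.17, adjusted p = 0.0973) and without S1, S2, S16, S29 or S30. IGFBP3 also lost it with a block for the order of sample numbers, the 6 R1881 libraries alone or no filter (adjusted p = 0.0783, 0.0821 and 0.0719).

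**Figure D2:**
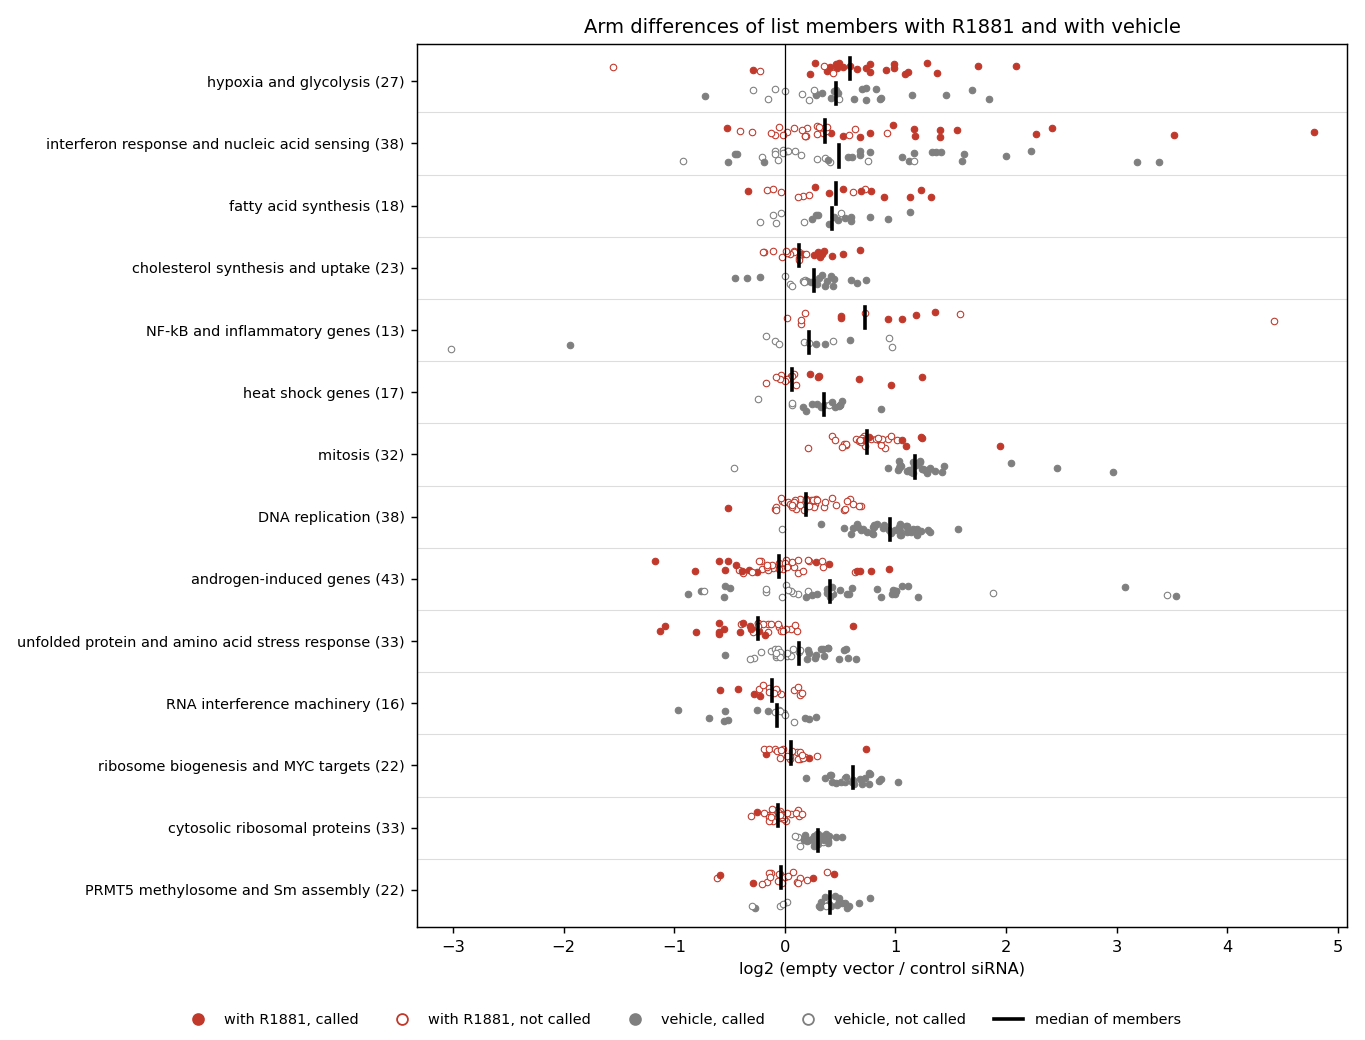
Log2 ratio of empty vector to control siRNA cells for each tested member of 14 gene lists, with R1881 (red) and vehicle (grey), filled where the adjusted p is under 0.05, and a bar at the median of the members. Hypoxia and glycolysis genes lie to the right in both hormone states, with medians of 0.59 and 0.46, while ribosomal protein genes lie near 0 with R1881 (-0.06) and to the right with vehicle (0.30).

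Of the 29 lists, hypoxia and glycolysis had the largest share of members higher in empty vector cells with R1881. Of its 27 genes tested, 22 were higher and 1 lower with R1881, against 8.75% and 11.2% of all genes, with a median log2 difference of 0.59 (all genes: -0.01), and 18 were higher and 1 lower with vehicle, against 19.9% and 16.5% (median 0.46, all genes: 0.01). All 18 were also among the 22. For 11 of the 27 the 12 libraries of study 1 lay above the 12 of study 2, against 1.21% of all genes. These libraries include those that gave the calls, so this count is no separate evidence. The count with R1881 stayed between 19 and 24 over all alternatives tried.

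The enzymes of the pathway are given first. LDHA, which turns pyruvate into lactate, had 1135, 1029 and 1057 CPM in empty vector cells against 294, 323 and 345 CPM in control siRNA cells with R1881, with no overlap (log2 difference 1.74 ± 0.08, adjusted p = 4.72e-12). With vehicle it differed by 1.85 (adjusted p = 2.11e-12). PGK1, which makes ATP in glycolysis, had 968, 918 and 994 CPM against 462, 498 and 492 CPM (log2 difference 0.99 ± 0.06, adjusted p = 8.21e-13). PFKP, a form of phosphofructokinase, differed by 1.09 (adjusted p = 8.90e-08) and GAPDH by 0.59 (adjusted p = 3.34e-08). Of the hexokinases, which start the pathway, HK2 was higher in empty vector cells by 0.77 (adjusted p = 8.50e-09) and HK1, the single lower gene of the list, stood at -0.29 (adjusted p = 1.57e-04). HK2 differed more with vehicle, by 1.70 (adjusted p of the change = 6.79e-07).

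The other members regulate oxygen use or act outside glycolysis. PDK1, which keeps pyruvate out of the mitochondria, had 94.7, 74.6 and 77.4 CPM in empty vector cells against 29.4, 37.5 and 33.97 CPM in control siRNA cells (log2 difference 1.29, adjusted p = 1.12e-09). BNIP3, a receptor for the removal of mitochondria, had 448, 429 and 455 CPM against 219.8, 239 and 247 CPM (log2 difference 0.92, adjusted p = 6.34e-12). Groups did not overlap for either gene. P4HA1, a collagen prolyl hydroxylase, stood at 1.38 with R1881 (adjusted p = 4.63e-07) and 0.22 with vehicle (adjusted p = 0.128), a change of 1.16 (adjusted p = 1.16e-04). VEGFA, the angiogenic factor, had 324, 305 and 344 CPM against 168, 210.2 and 206 CPM with R1881 (log2 difference 0.73, adjusted p = 6.49e-04).

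Outside the list, PLOD2 and NDUFA4L2, which are also known to respond to low oxygen, were among the genes with the largest differences. PLOD2, a lysyl hydroxylase of collagen, had 14.6, 13.01 and 11.8 CPM in empty vector cells against 0.379, 0.435 and 0.583 CPM in control siRNA cells, with log2 differences of 4.79 ± 0.24 with R1881 (adjusted p = 1.17e-13) and 5.50 ± 0.26 with vehicle (adjusted p = 1.74e-14). NDUFA4L2, a mitochondrial protein related to a subunit of the electron transport chain, had 84.8, 60.1 and 93.98 CPM against 8.97, 7.66 and 7.58 CPM (log2 difference 3.30, adjusted p = 2.11e-06). The level in control siRNA cells was low for PLOD2 in every library, with and without hormone.

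Promoters of PGK1, BNIP3 and PLOD2 are shown, chosen after the values of the genes were seen. Each has 1 listed start (RefSeq, GRCh38.p14, 250 bases before to 50 after the start, 5′ to 3′ on the gene's strand). Capitals mark ACGTG or its reverse complement CACGT, the core letters bound by hypoxia-inducible factors, searched on both strands, where the 2 forms overlap in CACGTG.
PGK1 (chrX:78103998-78104297, plus strand): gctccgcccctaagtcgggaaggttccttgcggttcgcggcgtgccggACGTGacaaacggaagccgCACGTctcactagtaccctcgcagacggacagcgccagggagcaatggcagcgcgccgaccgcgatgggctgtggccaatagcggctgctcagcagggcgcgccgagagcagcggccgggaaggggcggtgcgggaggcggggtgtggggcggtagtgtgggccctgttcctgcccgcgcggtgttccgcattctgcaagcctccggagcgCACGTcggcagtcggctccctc
BNIP3 (chr10:131981874-131982173, minus strand): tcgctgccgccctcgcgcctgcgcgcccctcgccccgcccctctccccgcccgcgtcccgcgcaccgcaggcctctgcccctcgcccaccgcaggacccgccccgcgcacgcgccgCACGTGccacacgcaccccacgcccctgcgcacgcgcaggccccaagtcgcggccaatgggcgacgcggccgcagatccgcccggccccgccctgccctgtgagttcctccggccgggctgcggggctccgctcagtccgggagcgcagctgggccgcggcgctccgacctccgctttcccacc
PLOD2 (chr3:146161135-146161434, minus strand): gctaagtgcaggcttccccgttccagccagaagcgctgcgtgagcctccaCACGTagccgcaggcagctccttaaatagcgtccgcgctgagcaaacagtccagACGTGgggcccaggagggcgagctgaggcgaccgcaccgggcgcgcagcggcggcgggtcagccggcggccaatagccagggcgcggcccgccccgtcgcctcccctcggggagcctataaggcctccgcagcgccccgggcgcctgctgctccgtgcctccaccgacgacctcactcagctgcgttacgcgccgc

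PGK1 held 3 matches, BNIP3 2 that overlap, and PLOD2 2. In the table of 35116 promoters 21.4% held at least 1 match. Of 39 promoters listed for 23 of the 27 tested hypoxia and glycolysis genes, 17 (43.6%) held one, 13 of 27 promoters for genes higher with R1881 and 4 of 12 for the rest. The share depends on how the list was assembled. A match to 5 letters describes the sequence and is not a site of binding.

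Some interferon-stimulated genes were also higher in empty vector cells. Of 38 tested genes of the interferon response and nucleic acid sensing, 14 were higher and 1 lower with R1881, against 8.75% and 11.2% of all genes (median log2 difference 0.36). All 14 were higher with vehicle too, where 18 were higher and 4 lower, against 19.9% and 16.5% of all genes. The count of 14 ranged from 13 to 17 over the alternatives. For 5 of the 38 the 12 libraries of study 1 lay above the 12 of study 2, against 1.21% of all genes, again a count that includes the libraries of the calls.

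The effectors had low levels in both arms. IFI6, an interferon-induced protein of the endoplasmic reticulum and mitochondria, had 26.998, 28.1 and 33.4 CPM in empty vector cells against 6.57, 5.11 and 4.98 CPM in control siRNA cells (log2 difference 2.41 ± 0.13, adjusted p = 8.21e-13), and 2.23 with vehicle (adjusted p = 2.07e-13). IFIT1, which binds foreign RNA at its end, had 8.11, 6.13 and 7.93 CPM against 2.34, 2.66 and 2.49 CPM (log2 difference 1.56 ± 0.18, adjusted p = 4.05e-07). BST2, a membrane tether of virus particles, had 1.96, 1.27 and 1.51 CPM against 0.0632, 0.0543 and 0.265 CPM (log2 difference 3.52 ± 0.49, adjusted p = 5.23e-06). Groups did not overlap for any of the 3. The log2 difference of BST2 was 4.61 without S36 of the control siRNA cells. BST2 and IFI27, a small mitochondrial protein, stayed under 2 CPM in all 6 libraries, and IFI27 differed by 2.28 (adjusted p = 8.66e-04). Of the OAS enzymes, which sense double-stranded RNA, OAS1 differed by 1.16 (adjusted p = 3.68e-05), while OAS2 had 65 counts over the 3 empty vector libraries against 2 over the control siRNA libraries, a ratio of scaled counts of 32.2 (95% exact interval 8.57 to 271.9, counting error only). OAS2 had 2.12, 0.760 and 0.755 CPM in the empty vector libraries, and both control siRNA counts were in S8. Its log2 difference ran from 4.11 to 7.62 with 1 library left out.

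Others differed less. ISG15, a ubiquitin-like modifier, had 48.1, 49.9 and 59.3 CPM in empty vector cells against 37.7, 36.2 and 35.5 CPM in control siRNA cells (log2 difference 0.52, adjusted p = 2.47e-05). MX1, an antiviral GTPase, was the single lower gene, with 40.4, 34.4 and 41.7 CPM against 57.9, 50.9 and 57.7 CPM (log2 difference -0.52, adjusted p = 3.32e-04), and it did not pass the test with vehicle (-0.09, adjusted p = 0.602).

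The promoters of IFI6, IFIT1 and BST2 carry the letters of the interferon-stimulated response element. Capitals mark GAAA, any 2 bases and GAAA again, or the reverse complement, TTTC on both sides of any 2 bases, searched on both strands (RefSeq, GRCh38.p14, as above).
IFI6 (chr1:27672143-27672442, minus strand): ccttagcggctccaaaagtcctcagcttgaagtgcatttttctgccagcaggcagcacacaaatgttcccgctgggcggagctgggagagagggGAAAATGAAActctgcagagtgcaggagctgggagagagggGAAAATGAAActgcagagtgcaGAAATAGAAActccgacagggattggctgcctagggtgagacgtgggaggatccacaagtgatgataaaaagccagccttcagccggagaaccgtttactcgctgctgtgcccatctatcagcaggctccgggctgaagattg
IFIT1 (chr10:89392373-89392672, plus strand): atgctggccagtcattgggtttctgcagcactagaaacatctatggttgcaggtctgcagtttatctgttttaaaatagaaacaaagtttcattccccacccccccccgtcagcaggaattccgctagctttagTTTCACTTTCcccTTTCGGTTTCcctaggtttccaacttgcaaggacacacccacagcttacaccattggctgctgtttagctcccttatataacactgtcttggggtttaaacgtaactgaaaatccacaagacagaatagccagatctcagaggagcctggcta
BST2 (chr19:17405581-17405880, minus strand): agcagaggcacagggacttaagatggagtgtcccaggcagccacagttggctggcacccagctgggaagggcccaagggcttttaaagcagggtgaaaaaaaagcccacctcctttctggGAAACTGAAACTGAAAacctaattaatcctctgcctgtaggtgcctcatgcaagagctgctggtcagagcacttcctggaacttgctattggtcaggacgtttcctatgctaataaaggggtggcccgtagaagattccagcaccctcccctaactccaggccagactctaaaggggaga

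IFI6 held 3 matches, IFIT1 2, and BST2 2 that overlap. Among all 35116 promoters 3.57% held a match. Promoters were listed for 29 of the 38 tested interferon genes, and 26 of 38 such promoters (68.4%) held one, 13 of 14 for genes higher with R1881 and 13 of 24 for the rest. The list was assembled from genes known to answer interferon, so its share of matches is a property of the list.

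**Figure D3:**
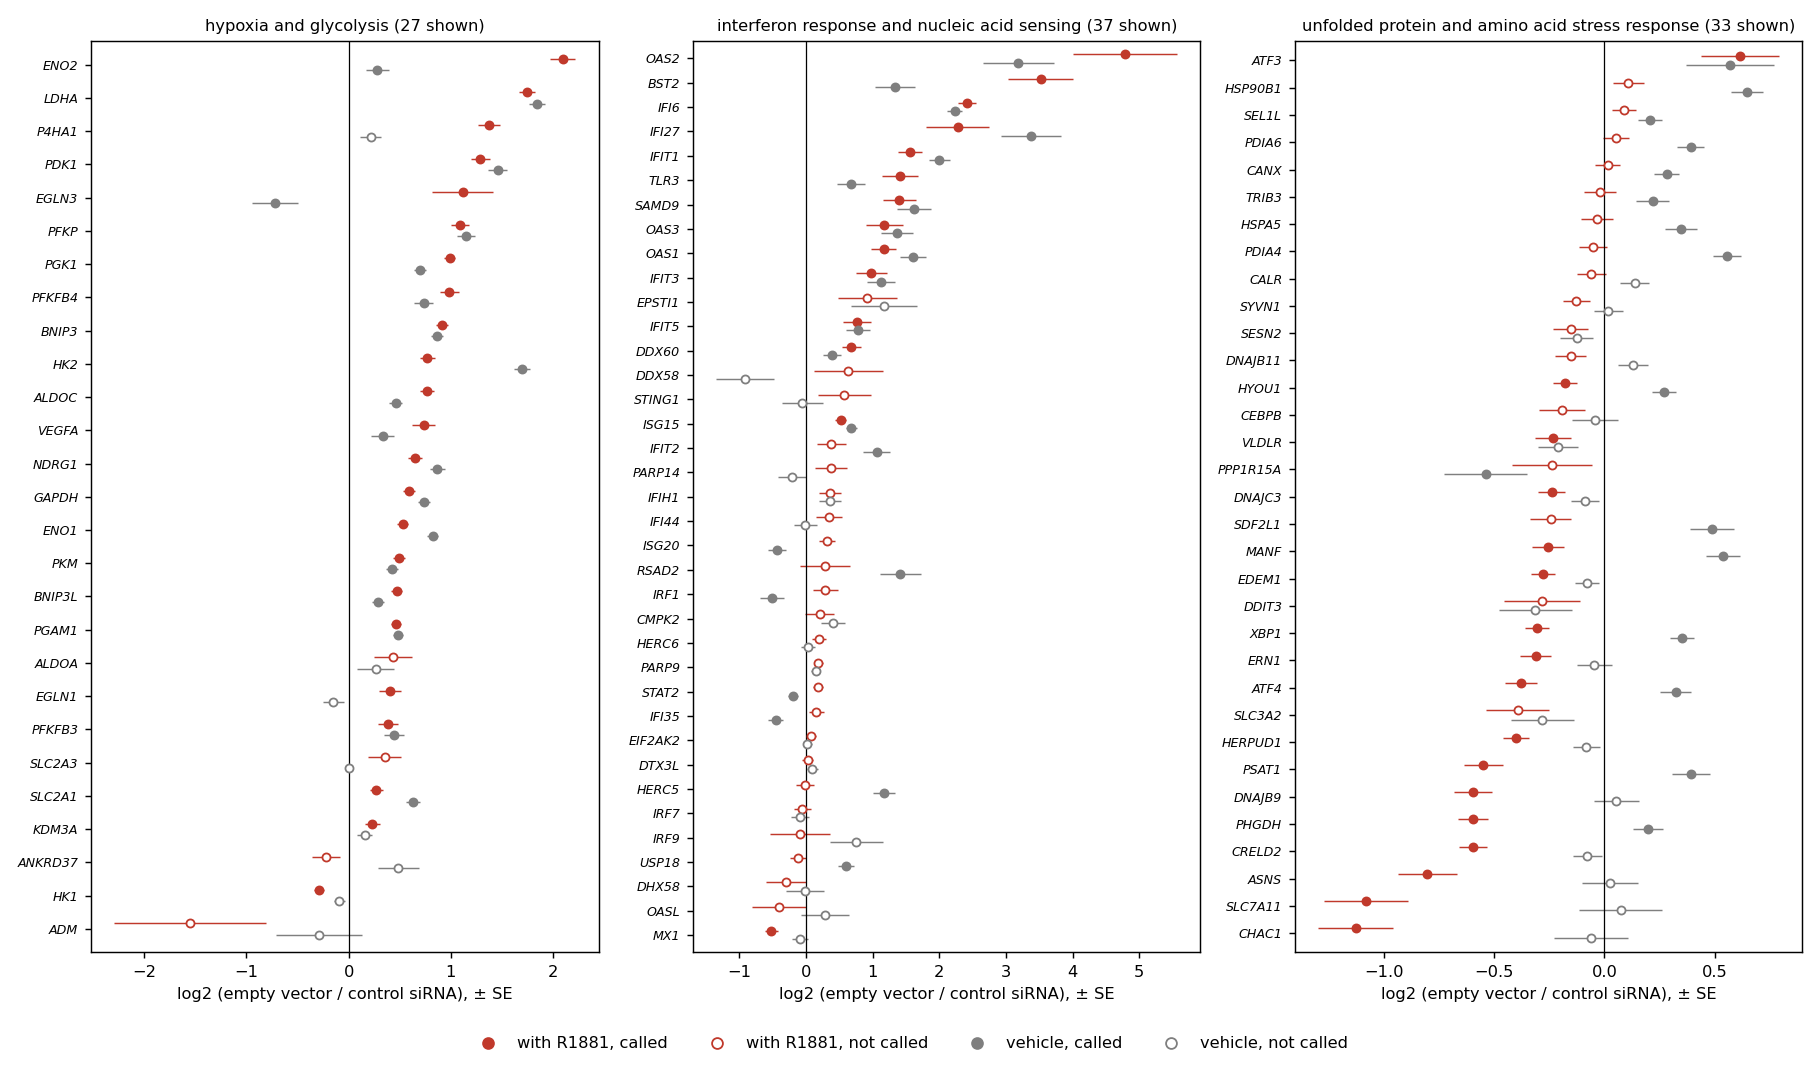
Log2 ratio of empty vector to control siRNA cells (± SE) for the tested genes of 3 lists, without those not reported by name, with R1881 (red) and vehicle (grey), filled where the adjusted p is under 0.05. Most hypoxia and glycolysis genes lie above 0 in both hormone states, 13 of the interferon genes shown are called above 0 in both, and in the stress list 16 genes are called below 0 with R1881 against 1 with vehicle.

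Many stress response genes, those of unfolded proteins and of amino acid shortage, were lower in empty vector cells with R1881. Of 33 tested, 16 were lower and 1 higher, against 11.2% and 8.75% of all genes (median log2 difference -0.24). With vehicle 1 was lower and 15 were higher, against 16.5% and 19.9% (median 0.13), and the lower count was 5 with library totals, 3 without S7, 2 without S21 and 0 without S35, S15 or S29. The arm difference was lower with R1881 than with vehicle for 19 of the 33, and higher for 0, against 10.8% and 6.36% of all genes. Counts of lower genes with R1881 ran from 13 to 18 over the alternatives.

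On the amino acid side, ATF4, the transcription factor of that response, had 271, 299 and 294 CPM in empty vector cells against 382, 368 and 371 CPM in control siRNA cells (log2 difference -0.38 ± 0.07, adjusted p = 5.72e-04). With vehicle it was higher in empty vector cells by 0.32 (adjusted p = 0.00111). CHAC1, which breaks down glutathione, had 6.37, 9.06 and 9.25 CPM against 23.1, 16.7 and 14.4 CPM (log2 difference -1.13, adjusted p = 5.26e-05). SLC7A11, the cystine importer, had 76.8, 80.6 and 65.8 CPM against 211, 135 and 128 CPM, and library S8 of the control siRNA cells was far above the other 2 of its group (log2 difference -1.08, adjusted p = 0.00467). PHGDH, the first enzyme of serine synthesis, had 248, 243 and 258 CPM against 413, 369.9 and 348 CPM (log2 difference -0.60, adjusted p = 6.11e-07) and ASNS, asparagine synthetase, differed by -0.80 (adjusted p = 7.71e-05). Groups did not overlap for these 5 genes.

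On the endoplasmic reticulum side, XBP1, a transcription factor of the unfolded protein response, had 231, 254 and 240.0 CPM in empty vector cells against 289, 304 and 303 CPM in control siRNA cells (log2 difference -0.31, adjusted p = 2.01e-04). Its targets DNAJB9, a co-chaperone, and CRELD2 were lower by more than XBP1, at -0.59 (adjusted p = 1.16e-05) and -0.60 (adjusted p = 1.17e-07). HSPA5, the main chaperone of the compartment, was not called (-0.03, adjusted p = 0.795). The single higher gene was ATF3, at 83.7, 76.1 and 80.8 CPM against 52.01, 54.3 and 50.6 CPM (log2 difference 0.62, adjusted p = 0.0384), a call lost without any 1 of the 6 R1881 libraries (adjusted p 0.0759 to 0.119) or of the 3 empty vector vehicle libraries. The call was also lost with a block for the order of sample numbers (adjusted p = 0.0728).

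Of 18 fatty acid synthesis genes tested, 9 were higher and 1 lower with R1881 (median log2 difference 0.47), and of 23 cholesterol genes 9 were higher and 0 lower (median 0.13), against 8.75% and 11.2% of all genes. With vehicle the counts were 12 higher and 0 lower, and 14 higher and 3 lower, against 19.9% and 16.5% of all genes. SCD, the desaturase that makes oleate, had 2701, 2449 and 2502 CPM in empty vector cells against 954, 1251 and 1285 CPM in control siRNA cells (log2 difference 1.13 ± 0.09, adjusted p = 7.61e-08). ELOVL6, an elongase, had 50.8, 42.9 and 43.2 CPM against 13.7, 18.04 and 22.5 CPM (log2 difference 1.33, adjusted p = 4.33e-07), and FADS1, a desaturase of polyunsaturated fatty acids, differed by 1.24 (adjusted p = 9.62e-06). FASN, the fatty acid synthase, was among the most abundant transcripts, at 12875, 12142 and 14323 CPM against 6347, 8892 and 9211 CPM (log2 difference 0.69, adjusted p = 0.0222). The call for FASN was lost without S2 (0.70, adjusted p = 0.0629) or S30 (0.62, adjusted p = 0.0695) of the empty vector cells. In these 4 genes library S8 was the lowest of the control siRNA cells and the groups did not overlap.

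ACSL1, which activates fatty acids, differed by 0.78 (adjusted p = 4.21e-10), and ELOVL7, an elongase induced by androgen, was the lower gene (-0.34, adjusted p = 0.00163). On the cholesterol side, FDFT1, squalene synthase, had 736, 773 and 764 CPM in empty vector cells against 414, 502 and 505 CPM in control siRNA cells (log2 difference 0.68, adjusted p = 8.98e-09). FDPS, which makes its substrate, differed by 0.43 (adjusted p = 3.25e-05) and MSMO1, a later enzyme of the pathway, by 0.34 (adjusted p = 1.72e-04). MSMO1 went the other way with vehicle (-0.23, adjusted p = 0.00478). The cholesterol count fell to 6 at its lowest, without S2 of the empty vector cells.

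Of 13 NF-kB and inflammatory genes tested, 6 were higher and 0 lower with R1881, against 8.75% and 11.2% of all genes. With vehicle 3 were higher and 1 lower, where the 3 are near the 19.9% of all genes. BIRC3, an inhibitor of cell death induced by NF-kB, had 24.4, 20.9 and 20.1 CPM in empty vector cells against 10.9, 7.22 and 7.52 CPM in control siRNA cells (log2 difference 1.36, adjusted p = 5.98e-08), and its arm difference was larger than with vehicle by 1.14 (adjusted p = 2.24e-04). NFKB2, a subunit of the factor, differed by 0.51 (adjusted p = 1.39e-05), its partner RELB by 0.94 (adjusted p = 0.00224) and the cytokine LIF by 1.19 (adjusted p = 0.0011). Of 17 heat shock genes 6 were higher and 0 lower with R1881, set against the same shares, the largest being HSPB1, a small heat shock protein, at 449, 500.2 and 547 CPM against 175, 225 and 231 CPM (log2 difference 1.24, adjusted p = 3.88e-04). HSPA4L differed by 0.67 (adjusted p = 3.15e-05) and HSPH1 by 0.30 (adjusted p = 0.00126). With vehicle 13 of the 17 were higher, against 19.9% of all genes.

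Of 27 p53 targets 7 were higher and 2 lower with R1881, against 8.75% and 11.2% of all genes. The higher ones included MDM2, the ubiquitin ligase of p53 (0.39, adjusted p = 6.41e-05), PLK2 (0.62, adjusted p = 2.43e-05) and BTG2 (0.52, adjusted p = 3.10e-04), while TNFRSF10B and RRM2B were the lower ones. Without S35, 11 were higher. CDKN1A, the cell cycle inhibitor at the centre of that response, was not called (0.40, adjusted p = 0.143), and was called without S35 (0.42, adjusted p = 2.35e-07). It was also called with the 6 R1881 libraries alone (0.42, adjusted p = 4.78e-06, edgeR). Of 20 immediate early genes 4 were higher (JUN, BTG2, ATF3 and MYC) and 1 lower (NR4A1), against the same shares. MYC had 124, 108 and 122 CPM in empty vector cells against 63.6, 75.4 and 73.5 CPM in control siRNA cells (log2 difference 0.74 ± 0.10, adjusted p = 6.02e-05), and 1.03 with vehicle (adjusted p = 6.81e-07), with study 1 above study 2 in all 24 libraries. JUN differed by 0.34 (adjusted p = 0.0027).

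Cell cycle genes are where the vehicle library S35 mattered most. Of 32 mitosis genes tested, 8 were higher and 0 lower in empty vector cells with R1881 in the fit of 12 libraries, against 8.75% and 11.2% of all genes, but for 31 of the 32 all 3 empty vector libraries lay above all 3 control siRNA libraries, against 16.8% of all genes. Without S35, or with the 6 R1881 libraries alone, 29 were higher. Leaving out an R1881 library lowered the count to 0 without S2 or S8, 1 without S22, 3 without S36 and 4 without S16 or S30, and it was 5 without S1 or S29 of the empty vector vehicle cells. CENPE, a motor protein of the kinetochore, had 25.7, 22.5 and 18.1 CPM in empty vector cells against 2.97, 5.43 and 8.58 CPM in control siRNA cells (log2 difference 1.94, adjusted p = 0.016), ASPM, a spindle protein, differed by 1.24 (adjusted p = 0.0153), AURKB, a mitotic kinase, by 0.76 (adjusted p = 0.0117) and TTK, a spindle checkpoint kinase, by 1.06 (adjusted p = 0.016). Each of these 4 lost its call without S2 or S8. CENPE, ASPM and TTK also lost it without S22, ASPM without S16, AURKB without S30 and TTK without S36 (adjusted p 0.0511 to 0.0736 over the lost calls). MKI67, the proliferation marker, had 89.5, 67.8 and 71.002 CPM against 47.8, 51.1 and 47.5 CPM and TOP2A, the topoisomerase of dividing cells, 58.9, 49.4 and 48.97 CPM against 23.8, 29.99 and 26.8 CPM. Neither passed the test in the fit of 12 libraries (adjusted p = 0.228 and 0.0506), although the groups did not overlap. Both passed without S35, MKI67 at 0.66 (adjusted p = 5.93e-08) and TOP2A at 0.98 (adjusted p = 3.58e-12). Both also passed with the 6 R1881 libraries alone (adjusted p = 2.76e-06 and 2.74e-09, edgeR). TOP2A passed as well with all 24 libraries (adjusted p = 0.00662), RLE factors (adjusted p = 0.0487) and DESeq2 (adjusted p = 0.00319).

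Of 38 DNA replication genes 0 were higher and 1, POLE, was lower with R1881 (-0.51, adjusted p = 5.06e-06), against 8.75% and 11.2% of all genes. With vehicle 37 were higher, against 19.9% (median log2 difference 0.95). Without S35, or with the 6 R1881 libraries alone, 17 were higher with R1881, and without S21 2 were, without S7 3. The arm difference was lower with R1881 than with vehicle for 11 of them, against 10.8% of all genes. MCM6, a subunit of the replicative helicase, averaged 61.4 ± 3.46 CPM in empty vector cells and 57.3 ± 1.16 CPM in control siRNA cells with R1881 (log2 difference 0.10, adjusted p = 0.655), and 126 ± 1.76 against 72.3 ± 16.02 CPM with vehicle (0.80, adjusted p = 3.57e-04).

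Of 22 ribosome biogenesis and MYC target genes 2 were higher and 1 lower with R1881, where the 2 are near the 8.75% of all genes and the 1 stands against 11.2%. With vehicle 21 were higher and 0 lower, against 19.9% and 16.5%, and the arm difference was lower with R1881 than with vehicle for 18 and higher for 0, against 10.8% and 6.36%. The count of higher genes with R1881 was 8 without S35, 4 without S21 and 1 without S22 or S36. NOLC1, a nucleolar protein, differed by 0.22 (adjusted p = 0.0126) and POLR1A, the large subunit of RNA polymerase I, by -0.17 (adjusted p = 0.0326). The call for NOLC1 was lost without S22 or S36 of the control siRNA cells (adjusted p = 0.0666 and 0.0728), and that for POLR1A without S2, S16, S30, S8 or S36 (adjusted p 0.0671 to 0.126). POLR1A also lost it with library totals or no filter (adjusted p = 0.113 and 0.0742). Of 33 cytosolic ribosomal proteins 0 were higher and 1, RPLP2, was lower with R1881 (-0.25, adjusted p = 0.0229). With vehicle 28 were higher and 0 lower, and the arm difference was lower with R1881 than with vehicle for 26, to be read against the same shares. RPLP2 lost its call without S2 (-0.15, adjusted p = 0.141), S16, S8 or S22, and 3 ribosomal protein genes were higher without S35. Of the 13 mitochondrially encoded genes none was called in the R1881 comparison (edgeR; median log2 difference 0.07).

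WDR77, the gene the series is about, was left untargeted in both arms. It had 57.2, 56.4 and 61.5 CPM in empty vector cells against 63.4, 66.7 and 65.5 CPM in control siRNA cells with R1881, where the groups did not overlap but the log2 difference of -0.16 ± 0.07 was not called (adjusted p = 0.108). With vehicle it was higher in empty vector cells by 0.36 (adjusted p = 1.93e-04), and the change between hormone states was -0.52 (adjusted p = 4.69e-04). Of 22 genes of the PRMT5 methylosome, the complex in which WDR77 acts, and of Sm assembly, 2 were higher and 2 lower with R1881, near the 8.75% and 11.2% of all genes. With vehicle 16 were higher and 1 lower, against 19.9% and 16.5%. SNRPB, an Sm protein, was lower by -0.29 (adjusted p = 0.00613), COPRS, a partner of PRMT5, was lower by -0.58 (adjusted p = 4.44e-07), and GEMIN2 and GEMIN4, of the complex that loads Sm proteins onto RNA, were higher, GEMIN2 by 0.45 (adjusted p = 0.0207). Without S2, S8 or S22 0 were higher, with GEMIN2 at 0.45 without S2 (adjusted p = 0.0507), and GEMIN2 also lost its call without S16.

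Of 26 genes tested in a list of androgen signalling coregulators, 9 were lower in empty vector cells and 1 (PIAS1) higher with R1881, against 11.2% and 8.75% of all genes, and 7 of the 9 were lower with vehicle too. With vehicle 9 of the 26 were lower and 9 higher, against 16.5% and 19.9% of all genes. GATA2, a pioneer transcription factor, differed by -0.58 (adjusted p = 3.04e-06), GRHL2, an epithelial transcription factor, by -0.47 (adjusted p = 4.40e-07) and the acetyltransferase CREBBP by -0.34 (adjusted p = 1.71e-04).

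The RNA interference machinery, through which a siRNA acts, was tested for 16 genes, of which 4 were lower and 0 higher in empty vector cells with R1881. DICER1, which cuts double-stranded RNA into small RNAs, had 159, 154 and 143 CPM in empty vector cells against 242, 215 and 227 CPM in control siRNA cells (log2 difference -0.58 ± 0.06, adjusted p = 1.49e-07). It differed by -0.55 with vehicle (adjusted p = 1.78e-07). TNRC6C, a silencing partner of Argonaute, was lower by -0.42 (adjusted p = 0.00178) and SND1, a nuclease, by -0.28 (adjusted p = 3.24e-04), and the fourth was DGCR8. The share of 4 in 16 stands against 11.2% of all genes. With vehicle 7 of the 16 were lower and 3 higher, against 16.5% and 19.9% of all genes, and 2 were called lower in both hormone states. SND1 went the other way with vehicle, higher in empty vector cells by 0.22 (adjusted p = 0.00207).

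Cell identity genes moved in single cases. Of 14 luminal markers 2 were higher (EPCAM and CDH1) and 3 lower, with ACP3 and FOLH1 among them, with R1881, against 8.75% and 11.2% of all genes. EPCAM, an epithelial adhesion molecule, was higher by 0.59 (adjusted p = 1.90e-07) and ACP3, prostatic acid phosphatase, lower by -0.70 (adjusted p = 8.98e-09). Of 4 neuroendocrine genes tested 2 were higher and 0 lower, a list too short to read against these shares. They were ENO2, a neuronal enolase that is also a glycolytic enzyme, at 47.1, 35.3 and 48.03 CPM in empty vector cells against 9.54, 11.4 and 9.54 CPM in control siRNA cells (log2 difference 2.09, adjusted p = 7.95e-11), and SYT4 (0.66, adjusted p = 3.36e-08). ENO2 differed by 0.28 with vehicle, and the change was called (1.81, adjusted p = 2.14e-07). The 5 defining neuroendocrine markers summed to 41.2 to 52.4 CPM in empty vector cells and 13.3 to 16.6 CPM in control siRNA cells, with 2 of them at 0 in all 6 libraries.

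Of 11 fibroblast and mesenchymal genes tested 3 were higher and 1 lower, against 8.75% and 11.2% of all genes. VIM, vimentin, had 13.4, 7.29 and 9.001 CPM in empty vector cells against 1.90, 1.79 and 1.48 CPM in control siRNA cells (log2 difference 2.52 ± 0.25, adjusted p = 5.93e-08). ACTA2, smooth muscle actin, was higher by 0.91 (adjusted p = 3.16e-05), and the third higher gene was COL1A1. FN1, fibronectin, was lower, with 247, 204 and 226 CPM against 798, 563 and 572 CPM (log2 difference -1.51 ± 0.13, adjusted p = 2.85e-05). The 6 defining fibroblast markers summed to 12.9 to 15.1 CPM in empty vector cells and 9.79 to 11.7 CPM in control siRNA cells, and 3 of them were at 0 in all 6 libraries. Of 5 basal genes tested, also few to set against these shares, 3 were higher, DST and the integrins ITGB4 (1.17, adjusted p = 1.96e-04) and ITGA6 (0.25, adjusted p = 0.0274), and KRT14, a basal keratin, was lower at 3.07, 2.53 and 3.08 CPM against 8.47, 5.81 and 9.70 CPM (-1.47, adjusted p = 2.45e-04). KRT14 was higher with vehicle (1.65, adjusted p = 4.44e-04). The 5 defining basal markers summed to 6.23 to 8.75 CPM in empty vector cells and 8.75 to 11.8 CPM in control siRNA cells with R1881. Of these markers 2 were at 0 in all 6 libraries. ITGA6 lost its call without S2 (0.20, adjusted p = 0.139), S16, S8 (0.19, adjusted p = 0.164) or S22.

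Counts of the remaining lists are to be read against 8.75% higher and 11.2% lower among all genes with R1881. Of 20 polyamine, methionine and one-carbon genes 4 were higher (GNMT, AMD1, MTAP and SHMT1) and 3 lower (SRM, AZIN1 and SMOX) with R1881, with MTAP, which recovers methionine, at 0.37 (adjusted p = 0.00233) and SHMT1, of folate metabolism, at 0.23 (adjusted p = 0.0061). Of 18 NRF2 and metal genes 3 were higher and 5 lower, with the metallothioneins MT2A (0.67, adjusted p = 1.17e-04) and MT1G (0.60, adjusted p = 0.00313) and the zinc exporter SLC30A1 (0.45, adjusted p = 8.94e-05) higher and SLC7A11, NQO1, OSGIN1 and FTL among the lower ones. The lysosome and autophagy list had 2 higher and 3 lower of 27, near the shares of all genes, with the cholesterol exporter NPC1 higher (0.57, adjusted p = 2.74e-07) and the sialidase NEU1 (-0.38, adjusted p = 2.63e-04) and the proton pump subunit ATP6V0D1 (-0.35, adjusted p = 1.45e-05) lower. With vehicle 17 were lower, against 16.5% of all genes. Of 11 SRF and YAP targets 1 was higher (MYL9) and 3 lower, CCN1 (-0.56, adjusted p = 0.00283), THBS1 (-0.81, adjusted p = 0.0144) and ACTG1 (-0.18, adjusted p = 0.0159). THBS1 lost its call without S2 or S30 (adjusted p = 0.0624 and 0.0531) and ACTG1 without S16 or S36 (adjusted p = 0.0851 and 0.0640). Of 7 histone genes tested 2 were higher, H1-2 (0.53, adjusted p = 5.89e-06) and H2BC11 (0.95, adjusted p = 0.00589).

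**Figure D4:**
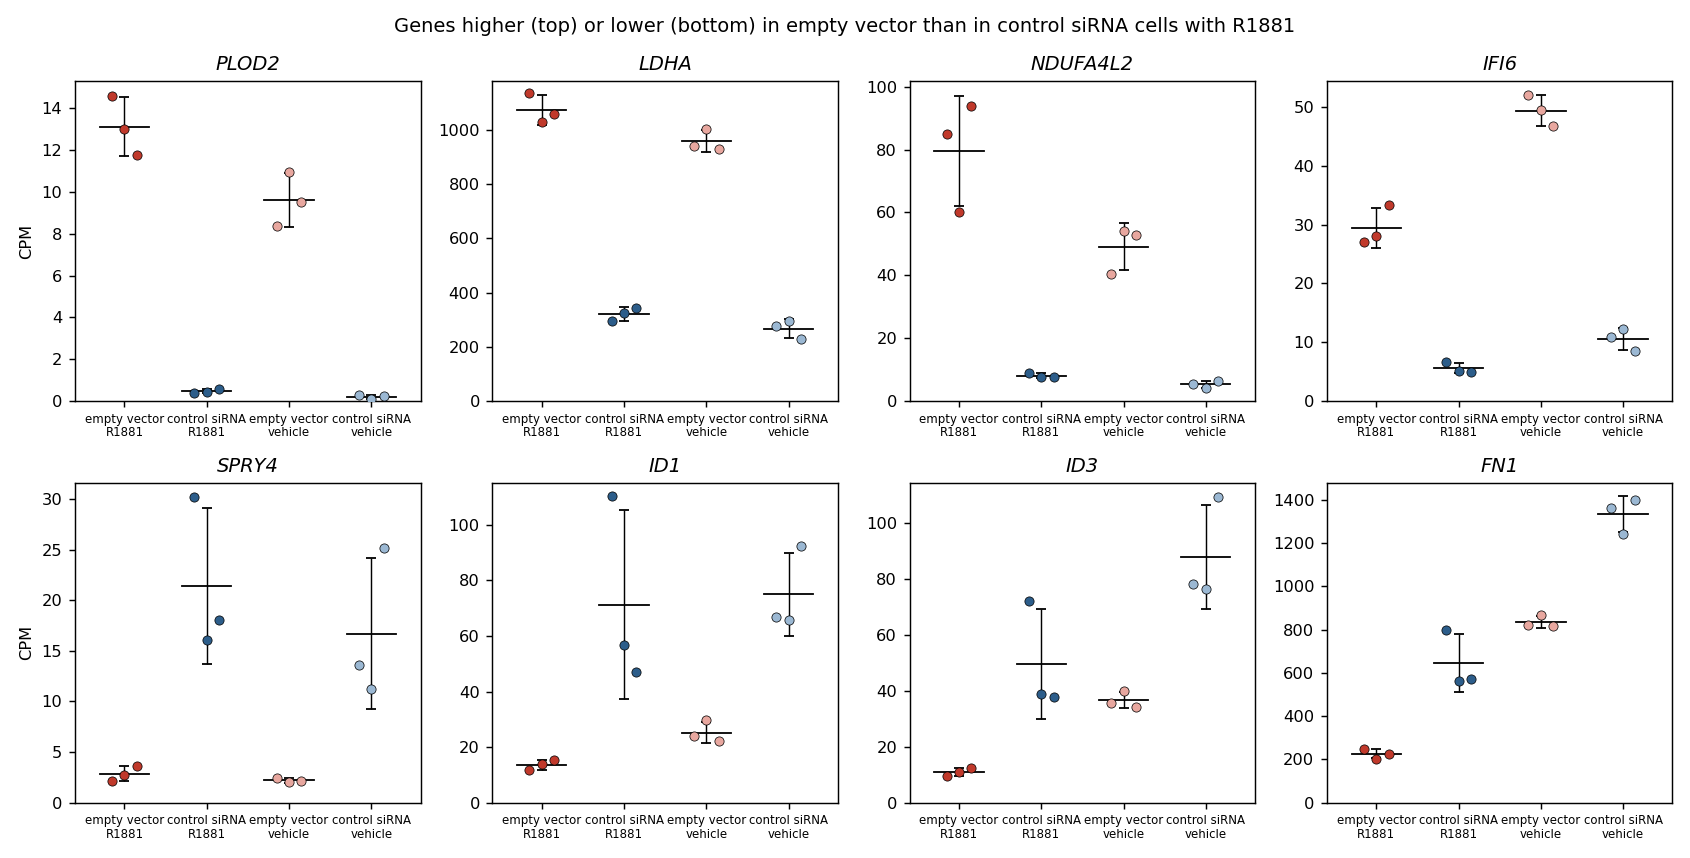
Levels (CPM) of 8 genes in each of the 12 control libraries, with the mean and SD of each group (n = 3). PLOD2, LDHA, NDUFA4L2 and IFI6 (top) were higher in empty vector than in control siRNA cells in both hormone states, and SPRY4, ID1, ID3 and FN1 (bottom) were lower in both.

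The largest single differences upward, beside PLOD2, NDUFA4L2, OAS2 and BST2, were those of STC1, AKAP12, PLA2G4D, KRT6B, TNFRSF9 and RAET1L. STC1, a secreted glycoprotein, had 101 counts over the empty vector libraries against 3 over the control siRNA libraries, a ratio of scaled counts of 33.4 (95% exact interval 11.1 to 164.7). AKAP12, a scaffold of protein kinase A, had 57.3, 41.6 and 51.4 CPM against 4.49, 5.16 and 6.84 CPM in control siRNA cells (log2 difference 3.18 ± 0.16, adjusted p = 3.01e-12). PLA2G4D, a phospholipase, had 2.24, 2.13 and 2.14 CPM against 0.0632, 0.163 and 0 CPM (log2 difference 4.73, adjusted p = 3.44e-06). KRT6B, a keratin, differed by 3.28 (adjusted p = 6.15e-06), TNFRSF9, a receptor of the tumour necrosis factor family, by 3.36 (adjusted p = 0.00275), and RAET1L, a stress ligand of natural killer cells, by 2.72 (adjusted p = 5.09e-06). TNFRSF9 had 5 counts over the control siRNA libraries, all in S22, and its log2 difference was 7.36 without S22 and 2.78 without S36. That of PLA2G4D was 5.95 without S22 and 4.14 without S36. RAET1L differed more than with vehicle by 2.56 (adjusted p = 0.00391), where its level was under 1 CPM in every library.

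Downward, SPRY4, ID1 and ID3 were among the genes with the largest differences. SPRY4, an inhibitor of receptor tyrosine kinase signalling, had 2.18, 2.73 and 3.65 CPM in empty vector cells against 30.2, 16.03 and 18.02 CPM in control siRNA cells (log2 difference -2.91 ± 0.41, adjusted p = 0.0012), and -2.93 with vehicle (adjusted p = 5.76e-04). ID1 and ID3 are inhibitors of differentiation switched on by BMP signalling. ID1 had 11.7, 14.03 and 15.2 CPM against 110.3, 56.8 and 46.9 CPM (log2 difference -2.38 ± 0.35, adjusted p = 0.00184), and ID3 had 9.33, 10.9 and 12.4 CPM against 72.04, 38.8 and 37.7 CPM (-2.18 ± 0.30, adjusted p = 0.0013). For all 3 genes library S8 was the highest of the control siRNA cells and the groups did not overlap. Both ID genes were lower with vehicle too, by -1.57 (adjusted p = 0.00541) and -1.26 (adjusted p = 0.00538).

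ADRA2A, an adrenergic receptor, had 33.8, 33.8 and 38.2 CPM in empty vector cells against 127, 120.0 and 126 CPM in control siRNA cells (log2 difference -1.82, adjusted p = 2.32e-04), and LPXN, a focal adhesion protein, 6.43, 9.11 and 7.18 CPM against 31.4, 24.3 and 24.3 CPM (-1.81, adjusted p = 3.51e-09). UST, a sulfotransferase, differed by -1.96 (adjusted p = 4.63e-07), C16orf54 by -2.89 (adjusted p = 1.48e-06), NTNG2, an axon guidance protein, by -2.15 (adjusted p = 0.00763), DIPK2B by -1.99 (adjusted p = 0.00109) and CTF1, a cytokine, by -1.75 (adjusted p = 0.027). C16orf54, NTNG2, DIPK2B and CTF1 were low genes, with group means under 5 CPM in both arms with R1881. CTF1 stood at -2.46 without S16 and lost its call without S2 (-1.37, adjusted p = 0.140), S30 or S22, and NTNG2 without S22 (-1.92, adjusted p = 0.0569).

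Among non-coding genes, WASIR2 (2.09, adjusted p = 7.97e-04), SAP30-DT (2.001, adjusted p = 0.00517) and LINC00930 (1.99, adjusted p = 0.0115) were higher by the most, and LINC00930 lost its call without S2 (1.596, adjusted p = 0.109) or S8. The lower ones were AC009133.17 (-2.19, adjusted p = 1.79e-04), HOXC13-AS (-1.81, adjusted p = 4.31e-04, and -2.57 without S16) and KB-1562D12.1 (-1.78, adjusted p = 3.97e-07). Whether reads were counted by strand is not given, so antisense genes cannot be told apart from their partners.

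The arm difference changed most between hormone states in low genes, besides KLK3 and KLK2. LRRN4 had 1.40, 1.32 and 1.45 CPM in empty vector cells against 0.758, 0.598 and 0.477 CPM in control siRNA cells with R1881, and 0.0531, 0 and 0 against 0.161, 0.297 and 0.135 CPM with vehicle, a change of 4.36 (adjusted p = 0.00615). GALNT12, a glycosyltransferase, had 1.34, 1.47 and 1.38 CPM against 0.948, 1.20 and 1.48 CPM with R1881, and 0.0531, 0 and 0 against 0.161, 0.594 and 0.361 CPM with vehicle (4.26, adjusted p = 0.00482). IL1B, the cytokine, had 7 counts over the empty vector libraries and 0 over the control siRNA libraries with R1881, at least 2.31-fold higher against a floor of 3 counts over the group. It was not called with R1881 (adjusted p = 0.0516), but was without S35 (adjusted p = 0.0437) or S30 (adjusted p = 0.0202), and was lower with vehicle (-1.95, adjusted p = 9.11e-04). DESeq2 and library totals also called it with R1881 (adjusted p = 0.041 and 0.0495). KCNK3 had 3 counts against 0, and GAB3 4 against 2, with R1881, so no fold is given. RNF148 and TRIM49D2 changed downward (-3.85, adjusted p = 0.0454, and -4.65, adjusted p = 0.043), at under 2 CPM in all 12 libraries.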

How the data were processed

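RNA-seq of LNCaP cells was deposited as raw read counts per gene, with 60649 features and 24 libraries in 1 table. Per the submitters' processing notes, the authors used bcl2fastq 2.20, STAR 2.7.9a, featureCounts of Subread 1.6.4 and the build GRCh38.p7. Neither the strand setting, nor the handling of reads with several alignments, nor the annotation release is given in the sources used here. Overlapping genes and near-identical copies are therefore uncertain. Libraries were grouped by their labels. Biotypes were looked up by ID in GENCODE 29, which held 58381 of the IDs. 140 symbols stand on more than 1 feature, and tests were run per ID.

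Tests used edgeR 4.0.16 in R 4.3.3 on the 12 control libraries, with filterByExpr by group, TMM scaling (factors 0.909 to 1.12) and the robust quasi-likelihood F test on 1 mean per group. The 17538 genes that passed the filter were tested, with Benjamini-Hochberg adjustment over all of them and calls under 0.05. Log2 differences are empty vector over control siRNA, and their SE was taken from the F statistic. CPM values refer to TMM-scaled totals of the tested genes. Intervals and the floor of 3 counts cover counting error only, since PCR copies were not marked. The p-values measure the spread between these libraries, whose cultures the labels do not name. No 2 libraries of a group agreed within sampling noise. The test was checked on simulated counts.

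The groups, members and all 29 gene lists were chosen with earlier results of these data known. The rule for naming took WDR77, KLK3, KLK2, TMPRSS2 and FKBP5. It took the 10 coding and 3 non-coding genes per direction with the largest called difference, no overlap between groups and a mean of 1 CPM or more in the higher group. It took up to 3 called members per list by smallest p, at the same level, and the 5 coding genes per direction whose arm difference changed most. Further genes were chosen after their values were seen, among them PDK1, P4HA1, HK1, VEGFA, ATF4, CHAC1, SLC7A11, XBP1, MX1, FASN, EAF2, KLK4, MKI67, TOP2A and CDKN1A, as were the promoters. A few genes are not reported here by name, though they count in their lists. Promoters are RefSeq sequences of GRCh38.p14, matched by symbol.

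Alternatives were RLE factors, library totals, no filter, DESeq2 1.42.0, all 24 libraries, the 6 R1881 libraries alone, a block for the order of sample numbers, and each library of a comparison left out in turn. Leaving out the vehicle libraries in the R1881 comparison, the R1881 libraries in the vehicle comparison, and recounting the lists under each alternative were added after seeing the data.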

Additional observations from a re-analysis of the deposited data

Results flagged for a closer look

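The results below were marked because the arm difference (empty vector over control siRNA) differed between R1881 and vehicle in the interaction term of the edgeR fit, which was the case for 3014 genes at an adjusted p under 0.05. Values are log2 changes of the arm difference, R1881 minus vehicle, so a negative one means that the empty vector cells stood lower against the control siRNA cells with R1881 than with vehicle. All groups held 3 libraries, too few to look for a single library far from the rest by its gap.

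Among androgen-induced genes the change was -3.31 for KLK3, -3.20 for KLK2, -1.52 for KLK4, -1.25 for EAF2, -1.23 for TMPRSS2, -0.999 for FKBP5, -0.996 for PMEPA1 and 1.43 for MAF. Library S35 had the lowest KLK3, KLK2, TMPRSS2 and FKBP5 of the control siRNA cells with vehicle. Without S35 the change was -2.87 for KLK3, -2.75 for KLK2, -1.07 for TMPRSS2 and -0.79 for FKBP5, each still called.

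In the list of unfolded protein and amino acid stress genes the change was -1.16 for SLC7A11, -1.07 for CHAC1, -0.83 for ASNS, -0.79 for PHGDH, -0.70 for ATF4, -0.66 for XBP1, -0.65 for DNAJB9, -0.52 for CRELD2 and -0.38 for HSPA5. For growth and replication genes it was -0.70 for MCM6, -0.55 for NOLC1, -0.49 for POLE, -0.39 for RPLP2 and -0.36 for POLR1A. For genes of the methylosome and Sm assembly it was -0.78 for SNRPB, -0.60 for COPRS and -0.52 for WDR77, and for the RNA interference gene SND1 -0.50.

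In hypoxia and glycolysis the change was 1.81 for ENO2, 1.16 for P4HA1, 0.29 for PGK1 and -0.93 for HK2. In fatty acid and cholesterol synthesis it was 0.72 for ELOVL6, 0.56 for MSMO1, 0.37 for SCD, 0.34 for FDFT1, 0.30 for ACSL1 and -0.58 for ELOVL7. Of interferon, NF-kB and heat shock genes, the change was 2.19 for BST2, -0.43 for MX1, 1.14 for BIRC3 and 0.79 for HSPB1. For single genes of the smaller lists it was 0.56 for BTG2, 0.67 for NPC1, 0.37 for SLC30A1, 0.24 for SHMT1 and -0.63 for CCN1.

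Identity markers changed by 1.87 for VIM, 1.39 for ITGB4, -0.84 for FN1 and -3.12 for KRT14. Genes with the largest differences with R1881 changed by 2.56 for RAET1L, 2.39 for STC1, 1.77 for WASIR2, 1.502 for AKAP12, -0.95 for ADRA2A, -0.96 for LPXN, -3.05 for C16orf54 and -3.35 for NTNG2. The low genes named for this change had 6.37 for IL1B, 5.22 for KCNK3, 4.58 for GAB3, 4.36 for LRRN4, 4.26 for GALNT12, -3.85 for RNF148 and -4.65 for TRIM49D2. Each of those 7 had 0 to 2 counts in at least 1 group, so the size of its change depends on the prior count of the fit.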

How the results depend on the processing

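The count of genes called with R1881, 3497, stayed within 1.5 times under every alternative run. It was 3455 with RLE factors, 3339 with library totals, 3414 without a filter, 3444 with DESeq2, 3650 with all 24 libraries and 3921 with the 6 R1881 libraries alone, and 2482 to 4264 with 1 library left out, the highest without S35. Counts with vehicle (6390) ran from 5254 to 6498 and those of the change between hormone states (3014) from 2282 to 3253 with 1 library left out. Library totals turned the R1881 split to 1795 higher and 1544 lower, where TMM gave 1534 and 1963.

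Sample numbers fall into runs, each with 1 library per group. Deviations of same-numbered empty vector and control siRNA libraries with R1881 correlated at 0.02, 0.021 and -0.002 across genes, and 4 of these 6 libraries correlated best with their own number. Over all pairs of the 4 groups the same-numbered correlations ran from -0.006 to 0.12. With 3 libraries a group, these values cannot show whether same-numbered libraries shared a culture or a day. With a replicate block the counts were 3649 with R1881, 6521 with vehicle and 3200 for the change.

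FKBP5, at -0.00, changed sign without being called. It was at 0.0066 with RLE factors, 0.0302 with library totals, 0.0044 without a filter, 0.0067 with DESeq2, 0.0155 with the 6 libraries alone, and -0.0765 to 0.0461 with 1 library left out. GAB3 ran from -0.35 to 1.49, RNF148 from -0.61 to 0.0158 and the mitochondrial share difference from -0.155 to 0.133 percentage points with 1 left out. The cause was not tested.

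Of the other settings of single genes, 2753 kept direction and call, 72 lost a call and 20 gained one. The counts of lists and of all genes are not part of this tally. Of the lists, mitosis and DNA replication moved most, as given above with S35. DESeq2 called 18 mitosis and 4 replication genes higher, and the fit of all 24 libraries 20 and 1. The 3 libraries a group limit the low genes. BST2, OAS2, STC1 and IL1B are among those with few counts in control siRNA cells with R1881.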
